A study of Homo sapiens with 3 samples.

Results

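The genes described here make cholesterol and fatty acids, or control the genes that do. A list of 34 genes was matched by exact symbol to the 20332 genes of the deposited table, and all 34 were present. The study treated HCC827, a human cell line grown from a lung adenocarcinoma whose EGFR carries an activating mutation, with compound 1 or compound 2 at 5 μM for 24 h, and sequenced mRNA. The series title calls the compounds daphnane diterpenoids, which are plant-derived molecules, and links them to suppression of the DNA damage response that the kinase ATR controls. The control received DMSO, the vehicle, and the labels gave no time for it. There were 3 libraries, 1 per group, so no value has a replicate error, no test was possible, and every difference is a difference between 2 libraries.

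Cells set the output of this pathway by sensing their own sterols. The transcription factors SREBP1 and SREBP2, the products of SREBF1 and SREBF2, are made as membrane proteins of the endoplasmic reticulum. When sterols are scarce, SCAP escorts them to the Golgi, where proteases release the active factor. When sterols are plentiful, the INSIG proteins hold SCAP back. SREBP2 mainly drives the genes of cholesterol synthesis and SREBP1 those of fatty acid synthesis. Dividing tumour cells use the products for new membranes.

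Levels are in TPM, a length-corrected share of each library, and differences are log2 ratios of TPM + 1. Every library summed to 1000000 TPM, and between 14154 and 14473 genes were above 0. Low values moved in steps, and the step per read and kb was close to 0.116 TPM for DMSO, 0.107 TPM for compound 1 and 0.1245 TPM for compound 2. Of the low values used, between 57.0% and 57.9% came within 0.1 of a whole read, and the steps were fitted to those same values. The reads behind a level are therefore approximate, and an interval for counting error was not computed. A total of 33 listed genes reached a mean of 1 TPM over the 3 libraries, as did 11600 genes of the whole table. ACSL1, at a mean below 1 TPM, did not. The epithelial markers matched the label, with EPCAM between 611 and 778 TPM and CDH1 between 180 and 268 TPM. The 5 epithelial markers summed to 13417, 6144 and 5256 TPM, and the drop in the sum came from the keratin genes KRT8, KRT18 and KRT19. The 9 leukocyte, fibroblast and endothelial markers stayed below 0.33 TPM in every library, and COL1A2, LUM and CDH5 were listed at 0. In bulk RNA, fewer cells expressing a gene and less of its RNA per cell cannot be told apart.

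Promoters are shown first, because control of this gene group by SREBP2 and its partner NF-Y runs through short DNA motifs near the start of transcription. RefSeq supplied 300-base windows (GRCh38.p14, from 250 bases before to 50 after an annotated start) for 30 of the 34 genes. These genes had 44 windows in all, so some had several, and a gene counted if any window matched. The windows below belong to MVK and EBP, which were among the lowest after both compounds, to ACSL4, which was above 2-fold after both, to INSIG1, which differed most between the compounds, and to the regulator SREBF2. Capitals mark a sterol regulatory element searched as TCACNCCAC, an NF-Y box searched as CCAAT and an E-box searched as CACGTG, on both strands. An NF-Y box on the opposite strand reads as ATTGG.
MVK, chr12:109573544-109573843, plus strand: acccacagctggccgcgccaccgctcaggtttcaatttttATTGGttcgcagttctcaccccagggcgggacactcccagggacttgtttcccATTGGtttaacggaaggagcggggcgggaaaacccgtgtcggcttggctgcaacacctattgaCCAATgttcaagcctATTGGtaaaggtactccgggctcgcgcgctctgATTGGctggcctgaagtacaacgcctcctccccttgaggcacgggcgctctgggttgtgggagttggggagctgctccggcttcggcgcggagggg
EBP, chrX:48521558-48521857, plus strand: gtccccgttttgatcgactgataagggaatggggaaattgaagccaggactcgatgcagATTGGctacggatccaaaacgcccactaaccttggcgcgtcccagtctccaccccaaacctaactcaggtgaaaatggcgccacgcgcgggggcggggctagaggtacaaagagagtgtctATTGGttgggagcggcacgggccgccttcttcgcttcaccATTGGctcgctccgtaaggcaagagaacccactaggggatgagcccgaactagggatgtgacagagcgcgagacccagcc
ACSL4, chrX:109733208-109733507, minus strand: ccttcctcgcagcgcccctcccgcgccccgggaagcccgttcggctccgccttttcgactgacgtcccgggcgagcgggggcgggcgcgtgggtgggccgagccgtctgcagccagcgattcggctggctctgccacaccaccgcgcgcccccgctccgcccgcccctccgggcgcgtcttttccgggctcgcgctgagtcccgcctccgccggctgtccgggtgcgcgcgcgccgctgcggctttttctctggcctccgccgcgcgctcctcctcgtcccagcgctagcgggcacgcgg
INSIG1, chr7:155297628-155297927, plus strand: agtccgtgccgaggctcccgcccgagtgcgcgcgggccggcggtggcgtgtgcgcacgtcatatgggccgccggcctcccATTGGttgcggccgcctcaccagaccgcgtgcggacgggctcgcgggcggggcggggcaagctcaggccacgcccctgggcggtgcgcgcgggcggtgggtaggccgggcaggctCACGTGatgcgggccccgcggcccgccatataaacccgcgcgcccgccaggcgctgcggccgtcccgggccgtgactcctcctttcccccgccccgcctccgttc
SREBF2, chr22:41832855-41833154, plus strand: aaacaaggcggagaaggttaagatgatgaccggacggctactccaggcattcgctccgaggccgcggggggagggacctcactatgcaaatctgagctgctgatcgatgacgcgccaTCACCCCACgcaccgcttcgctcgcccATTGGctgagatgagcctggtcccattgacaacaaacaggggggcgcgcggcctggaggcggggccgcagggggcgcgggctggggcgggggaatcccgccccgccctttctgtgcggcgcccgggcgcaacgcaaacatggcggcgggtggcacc

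These windows differ in their boxes. MVK holds 5 NF-Y boxes, EBP holds 3, INSIG1 holds 1 with an E-box 55 bases before the start, and ACSL4 holds none of the motifs. SREBF2 holds the sterol regulatory element, which begins 133 bases before its start, and an NF-Y box 106 bases before it. An NF-Y box was found for 22 of the 30 genes with a window (73.3%), against 43.6% of 9445 genes that averaged 1 TPM or more and had a window. A sterol regulatory element spelled this strictly was found for 2 of 30, SREBF2 and ACSL1 (6.67%, against 1.42%). ACSL1, which fell short of a mean of 1 TPM, has several windows, and not all of them hold the element. The number of windows per gene was not matched between the list and all genes. The E-box was found for 5 of 30 (16.7%, against 12.8%). Among the genes lower after both compounds, 13 of 17 with a window held an NF-Y box, and among those higher after both, 4 of 7 did. Among those with opposite signs, 4 of 5 did. The windows printed above do not stand for these groups. SREBF1, SCAP, PMVK and ELOVL6, lower after both, had a window and no NF-Y box. HMGCS1 and ELOVL5, higher after both, held up to 2 boxes in a window, and ACSL3 and SC5D held 1. A match is a spelling and not a site of binding, and no binding was measured here.

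The list as a whole was modestly lower after either compound, while the acyl-CoA synthetase genes ACSL3 and ACSL4 were higher. The summed level of the 34 genes was 2443 TPM with DMSO, 2050 TPM after compound 1 and 1924 TPM after compound 2. Most of that net difference lay in the 18 cholesterol enzymes, which summed to 1221, 845 and 803 TPM. The 5 SREBP regulators summed to 189, 215 and 145 TPM, and so were higher after compound 1 and lower after compound 2. The 11 fatty acid enzymes summed to 1032, 990 and 977 TPM, a sum that joins opposite differences. Within it, the 3 genes of carbon supply and chain synthesis summed to 552, 421 and 463 TPM. The 5 desaturases and elongases summed to 350, 305 and 252 TPM, and the 3 acyl-CoA synthetases to 130, 264 and 262 TPM. The median log2 ratio of the 33 measured genes was -0.29 after compound 1, against 0.11 over all 11600 genes. After compound 2 it was -0.49, against 0.09. Above DMSO stood 13 of the 33 genes after compound 1 and 8 after compound 2, where 55.7% and 54.8% of all measured genes did.

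Few single genes passed 2-fold in the ratio of TPM + 1, in which the added 1 shrinks ratios most at low levels. After compound 1, ACSL4 alone was at least 2-fold higher, 1 of 33 genes, where 14.7% of all measured genes were. ACAT2 and EBP were at least 2-fold lower, 2 of 33 genes, where 8.09% of all measured genes were. After compound 2, ACSL4 was again the 1 gene above 2-fold, against 12.6% of all genes, and ACAT2, MVK, SCD and DHCR7 were the 4 below, against 6.56%. The share of the list below 2-fold was thus close to that of all genes after compound 1. At a threshold of 1.5-fold, 8 genes were lower and 4 higher after compound 1 (18.0% and 28.2% of all genes). After compound 2, 13 were lower and 2 higher (15.8% and 25.6%). Both comparisons used the same DMSO library, so agreement between them is not independent.

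**Figure D1:**
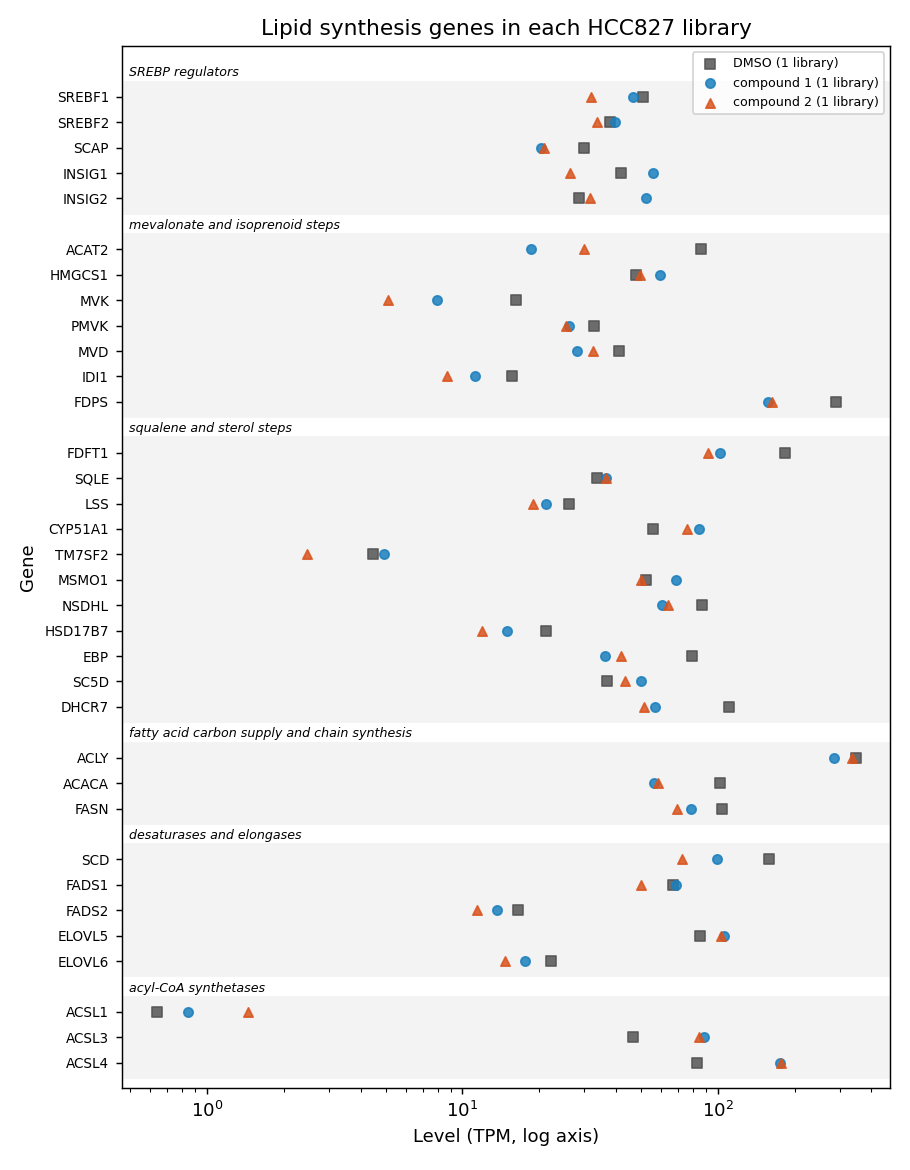
Level of each gene (TPM, log axis) in the DMSO, compound 1 and compound 2 libraries, 1 point per library, grouped by role. ACAT2 stood at 86.0, 18.6 and 30.0 TPM, and ACSL4 at 83.1, 175 and 176 TPM.

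The regulators of the pathway were all expressed, and the INSIG genes differed most between the compounds. INSIG1 (ENSG00000186480, GRCh38 chromosome 7, 155297776 to 155310235) measured 41.8 TPM with DMSO, 56.0 TPM after compound 1 and 26.3 TPM after compound 2. It was thus above DMSO after compound 1 (log2 ratio 0.41) and below it after compound 2 (-0.65). INSIG2 was at 28.7, 52.2 and 31.7 TPM. It was higher after compound 1 (0.84) and slightly above DMSO after compound 2 (0.14). These ratios became 0.32 and -0.30 when trends in length and GC content across all genes were subtracted. INSIG1 is itself a well-known SREBP target, whereas INSIG2 is less tied to SREBP.

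SREBF1 was at 51.1, 46.5 and 31.9 TPM, so the compound 2 library stood apart (log2 ratio -0.66, against -0.13 after compound 1). SREBF1 shares 556 exonic bases with RAI1 on the opposite strand, and RAI1 was at 28.8, 14.7 and 16.1 TPM. The longest annotated transcript of SREBF1 has 0% of its 31-mers (stretches of 31 bases) in other genes. SREBF2 was nearly level, at 37.7, 39.5 and 33.7 TPM. Its ratio after compound 1 was 0.07 and turned negative under median-of-ratios and upper-quartile scaling. SCAP, the escort, was at 30.0, 20.4 and 20.9 TPM, lower by about the same amount after both compounds (-0.53 and -0.50).

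The steps from acetyl-CoA to farnesyl diphosphate held the largest differences of the list. ACAT2, the cytosolic thiolase that joins 2 acetyl-CoA units (ENSG00000120437, chromosome 6, 159760328 to 159779055), measured 86.0 TPM with DMSO, 18.6 TPM after compound 1 and 30.0 TPM after compound 2. These are log2 ratios of -2.15 and -1.49, below all but 1.28% and 2.64% of measured genes, and both remained at least 2-fold lower under every alternative setting tried (-2.03 and -1.30 with the trend subtracted). Other genes contain 68.4% of the 31-mers of its longest annotated transcript, chiefly genes that overlap it on the opposite strand. The longest overlaps, of 1458 and 1141 exonic bases, are with a lincRNA gene and a protein-coding gene whose levels were not analysed here, and the lincRNA gene alone contains 44.6% of the 31-mers. A shorter overlap of 397 exonic bases is with the chaperonin gene TCP1, which was at 287, 262 and 333 TPM. The level of ACAT2 is therefore uncertain, because whether the counting used strand is not given in the sources used here.

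MVK, mevalonate kinase (ENSG00000110921, chromosome 12, 109573255 to 109598117), was at 16.3, 7.97 and 5.11 TPM. Its log2 ratios were -0.94 and -1.50, and they were -0.92 and -1.51 with the trend subtracted. Without the added 1, MVK was 2.04-fold lower after compound 1. Its neighbour MMAB, a gene of vitamin B12 metabolism that lies head to head with MVK and shares 306 exonic bases with it, was at 60.0, 24.4 and 18.8 TPM. Both genes were thus lowest after compound 2, and their reads in the shared stretch cannot be told apart without strand. The longest annotated transcript of MVK has 0% of its 31-mers in other genes.

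The rest of the mevalonate group was lower by less, and HMGCS1 stood at or above DMSO as deposited. FDPS, which makes farnesyl diphosphate, measured 290 TPM with DMSO, 158 TPM after compound 1 and 163 TPM after compound 2 (log2 ratios -0.87 and -0.82). IDI1, isopentenyl diphosphate isomerase, was at 15.6, 11.2 and 8.72 TPM, and so was lowest after compound 2 (-0.77). PMVK and MVD, the kinase and decarboxylase that follow MVK, were at 32.8, 26.2 and 25.4 TPM and at 41.2, 28.2 and 32.4 TPM. The ratios of PMVK after both compounds, and of MVD after compound 2, turned positive with the trend subtracted. HMGCS1, which makes HMG-CoA and is a widely used SREBP2 target, was at 47.7, 59.6 and 49.5 TPM. Its small positive ratios (0.32 and 0.05) turned negative with the trend subtracted (-0.09 and -0.31), and the second also under median-of-ratios and upper-quartile scaling. In all, 6 of 7 genes of this group were below DMSO after each compound, with medians of -0.53 and -0.77. The 1 gene above DMSO stands beside 55.7% and 54.8% of all measured genes. With the trend subtracted the medians were -0.52 and -0.48.

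The squalene and sterol steps were divided. At the branch point, FDFT1, squalene synthase, was at 184, 102 and 92.0 TPM (log2 ratios -0.85 and -0.99). SQLE, which oxidises squalene, was nearly level at 33.7, 36.5 and 36.5 TPM. LSS, which closes the ring to lanosterol, was at 26.3, 21.3 and 19.0 TPM. Neighbouring steps thus showed different ratios.

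CYP51A1, the lanosterol demethylase, was the sterol enzyme with the highest ratios, at 55.9, 84.6 and 75.6 TPM (0.59 and 0.43). Other annotated genes contain 89.9% of its 31-mers, chiefly AC000120.2, a gene on the same strand that was listed at 0 in all 3 libraries. MSMO1, the sterol methyl oxidase, was at 52.3, 68.4 and 50.02 TPM, above DMSO after compound 1 and close to it after compound 2. SC5D, which introduces a double bond late in the pathway, was at 36.7, 49.98 and 43.4 TPM. Its ratio after compound 2 (0.23) turned slightly negative with the trend subtracted (-0.03).

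The other sterol enzymes were mostly lower. EBP, the sterol isomerase that is also known as the emopamil binding protein (ENSG00000147155, chromosome X, 48521158 to 48528716), was at 79.1, 36.2 and 41.7 TPM (log2 ratios -1.11 and -0.91). DHCR7, which reduces 7-dehydrocholesterol to cholesterol (ENSG00000172893, chromosome 11, 71428193 to 71452868), was at 111, 56.6 and 51.4 TPM (-0.96 and -1.10). With the trend subtracted neither remained past 2-fold, EBP being at -0.65 and -0.46 and DHCR7 at -0.58 and -0.75. NSDHL, which takes part in removing the methyl groups, was at 86.9, 60.4 and 64.1 TPM.

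HSD17B7, which acts in the same demethylation, was at 21.4, 15.0 and 11.97 TPM, and 27.1% of its 31-mers are found elsewhere, chiefly in the pseudogene HSD17B7P2. Its ratio after compound 2 was -0.79, and -1.03 with the trend subtracted. TM7SF2, a sterol reductase, was the lowest of the group at 4.47, 4.92 and 2.46 TPM, which corresponds to roughly 80.6, 96.3 and 41.4 reads. Over the 11 genes, 6 were below DMSO after compound 1 and 8 after compound 2, with medians of -0.29 and -0.45. The 5 and 3 genes above DMSO stand beside 55.7% and 54.8% of all measured genes, so the count after compound 1 was near that share. With the trend subtracted the medians were -0.23 and -0.38.

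Fatty acid synthesis proper was lower in both treated libraries at each of its 3 enzymes. ACLY, which makes cytosolic acetyl-CoA from citrate, was the most abundant gene of the list at 347, 286 and 335 TPM, and after compound 2 it was almost at the DMSO level (log2 ratio -0.05). ACACA, acetyl-CoA carboxylase, was at 102, 56.4 and 58.5 TPM (-0.84 and -0.79). It passed 2-fold after both compounds with the trend subtracted (-1.42 and -1.36), its longest transcript being 9961 bases. FASN, fatty acid synthase, was at 104, 78.4 and 69.4 TPM (-0.40 and -0.57).

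Of the desaturases and elongases, SCD differed most. SCD, which makes monounsaturated fatty acids (ENSG00000099194, chromosome 10, 100347124 to 100364834), measured 159 TPM with DMSO, 99.6 TPM after compound 1 and 72.2 TPM after compound 2. The log2 ratios were -0.67 and -1.13, and -0.96 and -1.37 with the trend subtracted. ELOVL6, which lengthens palmitate, was at 22.2, 17.6 and 14.7 TPM (-0.32 and -0.56, or -0.97 and -1.10 with the trend subtracted).

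The enzymes of polyunsaturated fatty acids differed by less. FADS1 was at 66.7, 68.6 and 50.3 TPM, close to DMSO after compound 1 and below it after compound 2, and its ratio after compound 1 (0.04) changed sign under both other scalings and with the trend subtracted. FADS2 was at 16.5, 13.7 and 11.5 TPM. FADS2 shares 490 exonic bases with FADS1 on the opposite strand, the more abundant of the pair, and 49 with the replication gene FEN1 on its own strand, which was at 164, 37.4 and 53.9 TPM. The longest annotated transcript of FADS2 has 0% of its 31-mers in other genes. The part of FADS1 and FEN1 reads in the FADS2 level was not tested. ELOVL5 was at 85.5, 105 and 103 TPM, higher by about the same amount after both compounds (0.30 and 0.27). ELOVL5 stood near 0 with the trend subtracted (0.02 and 0.08).

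The acyl-CoA synthetases, which attach coenzyme A to free fatty acids, went the other way. ACSL4, which prefers arachidonate and is known for its part in ferroptosis (ENSG00000068366, chromosome X, 109624244 to 109733403), was at 83.1, 175 and 176 TPM (log2 ratios 1.06 and 1.08). ACSL3, which is linked to lipid droplet formation, was at 46.5, 88.3 and 84.5 TPM (0.91 and 0.85). The treated libraries differed little from each other at both genes. Both ratios shrank with the trend subtracted, to 0.34 and 0.40 for ACSL4 and to 0.24 and 0.17 for ACSL3. ACSL4 also fell short of 2-fold under median-of-ratios scaling after both compounds, and under upper-quartile scaling after compound 1. ACSL1 was at 0.635, 0.841 and 1.45 TPM, or roughly 22.5, 32.2 and 47.8 reads, so its differences rest on few reads.

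**Figure D2:**
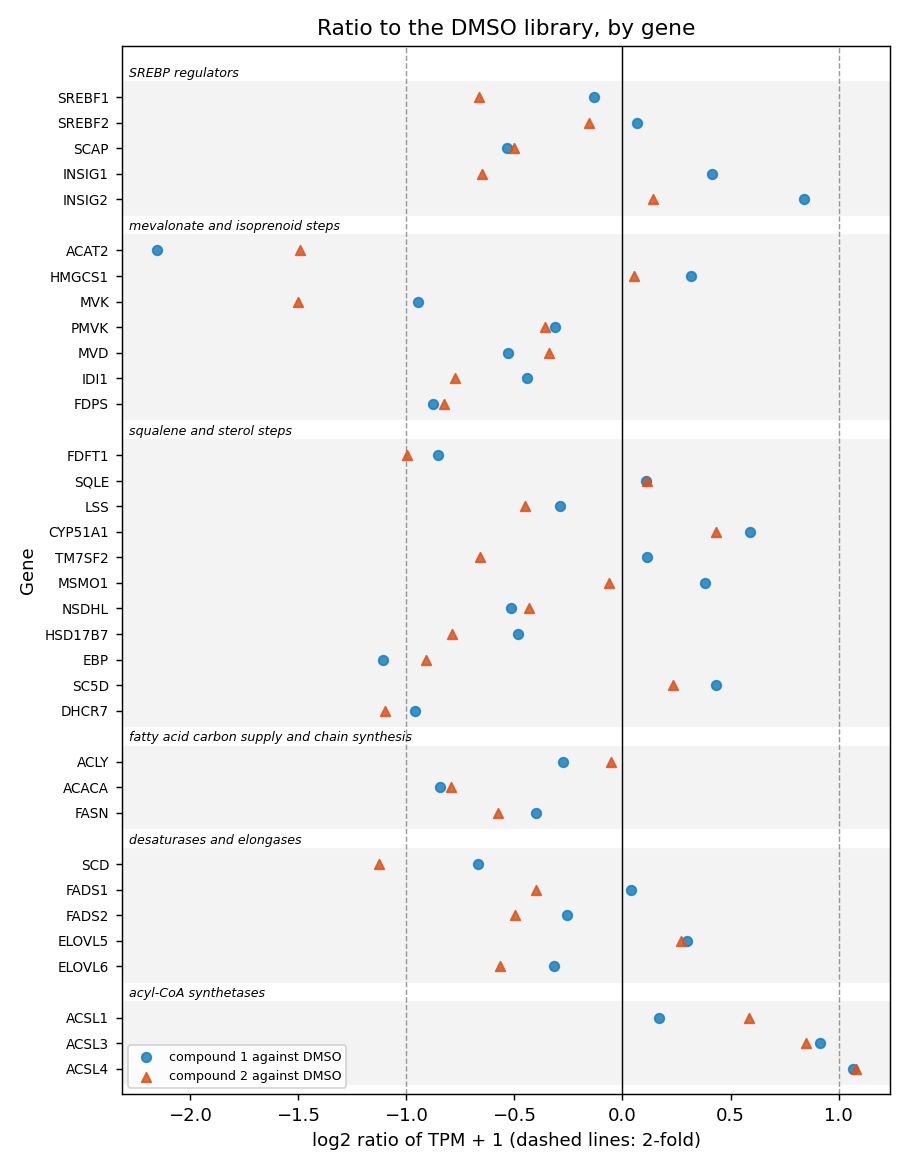
log2 ratio of TPM + 1 to the DMSO library for each gene, with 1 point per compound and dashed lines at 2-fold, all 34 genes included. ACAT2 was the lowest after compound 1 (-2.15), MVK and ACAT2 after compound 2 (-1.50 and -1.49), and ACSL4 was the highest after both (1.06 and 1.08).

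Across the list, 20 genes were below DMSO after both compounds, 8 were above it after both, and 5 differed in direction. Over all 11600 genes, 4609 were below after both, 5835 were above and 1152 (9.93%) differed in direction. The direction held under every alternative setting for 18 of the 20 lower genes, the exceptions being PMVK and MVD. It held for 5 of the 8 higher genes, CYP51A1, ELOVL5, ACSL3, ACSL4 and SQLE.

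Lower and higher genes differed in base composition, which the choice of the list did not use. The 8 higher genes had transcripts of 35.4% to 46.5% GC (median 39.4%), and the 20 lower genes 41.1% to 65.3% (median 54.7%). None of the 19 listed genes above 47.9% GC was higher after both compounds. A trend in the same direction ran through the whole table. When all genes were split into 4 bins of equal size by GC content, 75.2% of the lowest bin were higher after both compounds. Above 47.9% GC, where none of the 19 listed genes was, the shares were 39.1% in the third bin and 29.7% in the highest. Across the 33 genes Spearman's rho between log2 ratio and GC content was -0.52 after compound 1 and -0.45 after compound 2. Across 11542 genes it was -0.39 and -0.39. For transcript length, rho was 0.14 and 0.06 across the 33 genes, and 0.30 and 0.32 across the 11542. The points share the same libraries and genes are not independent, so these are descriptions.

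**Figure D3:**
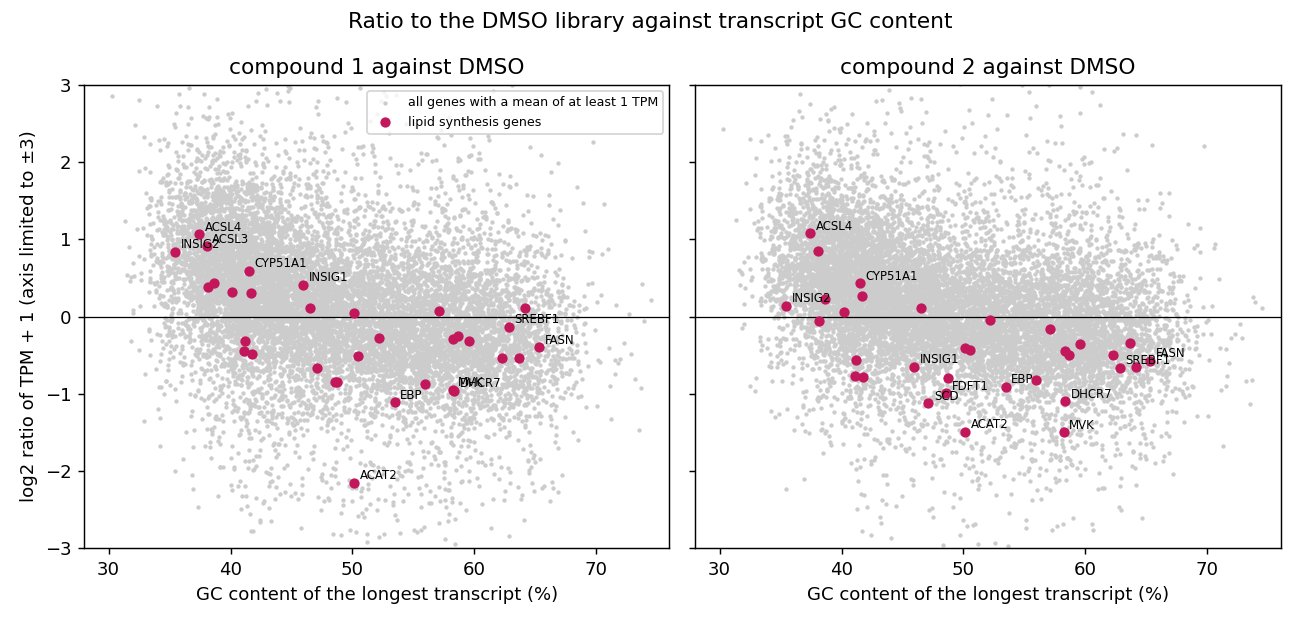
log2 ratio of TPM + 1 to the DMSO library against the GC content of each gene's longest annotated transcript, for compound 1 (left) and compound 2 (right), with lipid synthesis genes over all genes in grey. The lipid genes higher after both compounds lie at or below 46.5% GC, and ACAT2, at 50.2% GC, lies lowest after compound 1.

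Within each of the 4 GC bins the list median stood below that of all genes after both compounds. In the third bin, which held ACACA, ACAT2, ACLY, EBP, FADS1, FDFT1, FDPS and NSDHL, the median of the 8 genes was -0.85 after compound 1 and -0.81 after compound 2, against -0.08 and -0.10 for all genes there. In the highest bin, with 11 of the genes, it was -0.31 and -0.50, against -0.25 and -0.23. In the lowest bin, with 10, it was 0.41 and 0.19, against 0.61 and 0.54. With the trends in length and GC subtracted from every gene, the list median was -0.23 after compound 1 and -0.42 after compound 2, where that of all genes is 0 by construction. The cause of the trend was not tested.

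The direct comparison of the compounds at the same dose and time showed 1 gene past 2-fold. INSIG1 was lower after compound 2 than after compound 1 (log2 ratio -1.06), while 0.552% of all measured genes were at least 2-fold lower. It was lower by 1.5-fold or more together with INSIG2 (-0.70) and TM7SF2 (-0.77), and ACAT2 was higher (0.66), where 3.14% and 2.59% of all genes passed 1.5-fold lower and higher. MVK (-0.55) and SREBF1 (-0.53) stood next. No gene of the list was at least 2-fold higher, against 0.293% of all genes, and the list median was -0.16, against -0.01 over all genes. Of the 5 regulators, 4 were lower after compound 2 than after compound 1, SCAP being the exception (0.03). All 5 desaturases and elongases were lower after compound 2, from -0.03 for ELOVL5 to -0.46 for SCD, and none of them passed 1.5-fold. Beside these counts of signs, about as many of all measured genes were lower as higher, their median being -0.01. With 1 library each, differences of this size have no replicate check.

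Genes around the pathway were described with a wider set of 69 genes, of which 59 were measured. After compound 1, 9 of the 59 were at least 2-fold higher and 4 lower, where 14.7% and 8.09% of all measured genes were. After compound 2 the counts were 5 and 3, against 12.6% and 6.56%. The shares of the wider set past 2-fold were thus near or below those of all genes. With the trend subtracted the counts were 4 and 3 after compound 1 and 2 and 3 after compound 2. Of all 11542 genes, 973 were then higher and 1042 lower after compound 1, and 791 and 864 after compound 2. The sterol transport and storage genes had the highest median of these lists after compound 1 (0.73), and 2 of 7 were past 2-fold higher, against the 14.7% of all genes. With the trend subtracted their median was 0.43 and 1 of 7 was past 2-fold. NPC1, which exports cholesterol from lysosomes, was at 45.0, 119 and 98.3 TPM (log2 ratios 1.39 and 1.11, or 1.19 and 0.98 with the trend subtracted). SOAT1, which esterifies cholesterol for storage, was at 31.9, 96.2 and 96.7 TPM (1.56 and 1.57, or 0.80 and 0.88 with the trend subtracted). NPC1 and SOAT1 were thus higher in both treated libraries, in which most cholesterol enzymes were lower. NPC2, named here after its values were seen, went the other way, at 294, 208 and 187 TPM (-0.50 and -0.65). It was the most abundant gene of this list in DMSO. The other 6 genes were above DMSO after each compound, where 55.7% and 54.8% of all measured genes were. With the trend subtracted LIPA turned negative after both (-0.05 and -0.11), and STARD4 after compound 2 (-0.21).

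Sterol sensing genes were mixed. TMEM97, a sterol-regulated membrane protein that binds NPC1, was at 41.0, 7.54 and 13.1 TPM (-2.30 and -1.58, or -2.21 and -1.49 with the trend subtracted). Like ACAT2, it was lowest after compound 1. SYVN1, a ubiquitin ligase of the endoplasmic reticulum, was at 24.0, 51.2 and 34.4 TPM (1.06 and 0.50). The other 7 genes of this list, among them the SREBP proteases MBTPS1 and MBTPS2, did not pass 2-fold in TPM + 1. Without the added 1, MBTPS2 was 2.11 and 1.996 times its DMSO level.

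In the isoprenoid branches, PGGT1B, a subunit of the geranylgeranyl transferase, was at 6.28, 14.9 and 11.9 TPM, and its ratios of 1.13 and 0.82 turned negative with the trend subtracted. PDSS1, which builds the side chain of coenzyme Q, was at 33.3, 15.2 and 18.9 TPM (-1.09 and -0.79), and fell short of 2-fold with the trend subtracted (-0.94 and -0.60). None of the 5 measured genes of LXR and sterol efflux passed 2-fold in TPM + 1. The largest ratios there were those of the cholesterol exporter ABCA1 (0.69 and 0.86), at 1.36 to 3.28 TPM, and of LPCAT3 (-0.74 and -0.39). Without the added 1, ABCA1 was 2.07 and 2.42 times its DMSO level. With the trend subtracted ABCA1 was near DMSO after compound 1 (0.03 and 0.20), and LPCAT3 was at -0.56 and -0.21.

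Other fatty acid genes also differed in both directions. SLC25A1, the citrate carrier that feeds ACLY, was at 81.6, 38.2 and 30.2 TPM (-1.08 and -1.41, or -0.58 and -0.93 with the trend subtracted). TECR, which completes each round of elongation, was at 133, 59.8 and 58.3 TPM (-1.14 and -1.17). FADS3 was at 14.1, 30.3 and 26.3 TPM (1.05 and 0.86), and fell short of 2-fold with the trend subtracted (0.96 and 0.80). The elongase gene ELOVL7 was at 13.9, 23.8 and 33.8 TPM (0.73 and 1.22), and with the trend subtracted its ratios were -0.05 and 0.48, so that the sign after compound 1 turned. In glycerolipid synthesis, the phosphatidate phosphatase genes LPIN1 and LPIN2 were higher, LPIN1 at 15.0, 42.6 and 38.3 TPM (1.45 and 1.30) and LPIN2 at 7.88, 20.4 and 16.7 TPM (1.27 and 1.00). With the trend subtracted LPIN1 remained past 2-fold (1.22 and 1.06) and LPIN2 did not (0.88 and 0.68).

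Of 8 measured fatty acid oxidation genes, 6 were above DMSO after each compound (medians 0.47 and 0.55), where 55.7% and 54.8% of all measured genes were above it. With the trend subtracted the medians were 0.41 and 0.33. CPT2, a mitochondrial carnitine palmitoyltransferase named here after its values were seen, was at 41.1, 29.6 and 29.8 TPM (-0.46 and -0.45), and was past 2-fold lower with the trend subtracted (-1.08 and -1.02). The regulator gene PPARA was at 0.869, 3.22 and 2.15 TPM (1.17 and 0.75), and with the trend subtracted it was not past 2-fold, at 0.56 and 0.16.

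**Figure D4:**
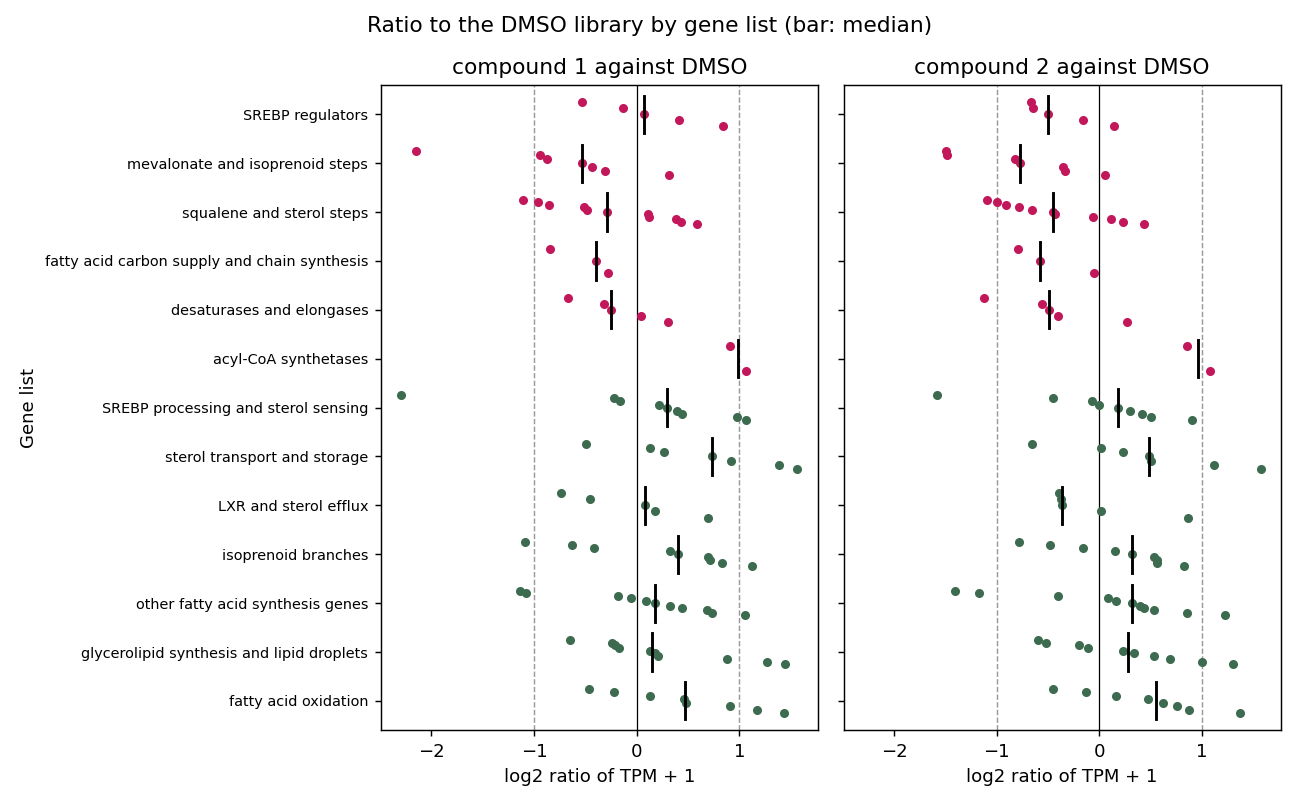
log2 ratio of TPM + 1 to the DMSO library for the measured genes of each list, 1 point per gene and a bar at the median, with the 34-gene list by role in red and genes around the pathway in green. As deposited, the mevalonate group lies lowest (medians -0.53 and -0.77) and the acyl-CoA synthetases highest (0.99 and 0.96, from 2 genes). With the trend subtracted, which is not drawn, the mevalonate medians were -0.52 and -0.48. Fatty acid carbon supply and chain synthesis, with 3 genes, was then lowest (-0.64 and -0.88), and the acyl-CoA synthetases were at 0.29 and 0.29.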

How the data were processed

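Per the labels' protocols, Trizol was used for RNA from HCC827 cells and a TruSeq RNA kit (Illumina) for the libraries. The submitters' processing notes list Bowtie 0.12.2 and the builds GRCh38.p12 and mm8 without roles; the annotation, counting step and use of strand are not given in the sources used here. A single deposited table holds all values. The authors' column headers name FPKM, but each column sums to 1000000, so its values were treated as TPM, although the design had not assumed that unit. Log2 ratios of TPM + 1 were computed with Python 3.11.15 and pandas 2.3.3 for genes averaging 1 TPM or more, and those past 2-fold were counted with no test, since each group has 1 library. Replicate error is therefore unknown. The self-test on simulated data recovered the changes put in, which were well above 2-fold, in well-expressed genes and with little noise. It held no smaller changes, no changes in low genes and no trend in length or GC content, so it does not bear on those. Gene coordinates, transcript lengths, GC content and shared 31-mers came from GENCODE 29 (GRCh38), using each gene's longest transcript. The trend was subtracted as medians of 20 bins of length and then of GC content. Promoter windows came from RefSeq. Every listed gene was named; of the genes around the pathway, those past 2-fold after either compound, or else the 2 of largest ratio in a list. A gene around the pathway that this rule would name is not reported here. The genes, lists and settings were chosen with earlier results of these data known.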

Additional observations from a re-analysis of the deposited data

Results flagged for a closer look

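A total of 5 of 33 genes had ratios to DMSO of opposite signs after the compounds, as had 9.93% of all 11600 measured genes. They were INSIG1 (log2 ratio of compound 2 to compound 1, -1.06), TM7SF2 (-0.77), MSMO1 (-0.44), FADS1 (-0.44) and SREBF2 (-0.22). The difference was not tested, since each compound has 1 library, and both ratios share the DMSO library. For SREBF2 and FADS1 the ratio after compound 1 was below 0.1 and changed sign under other scalings.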

How the results depend on the processing

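Of 69 recomputed counts and medians, 53 stayed within 1.5 times the reported count or within 0.1 of the reported median, and no median changed sign. After compound 1, the count of genes at least 2-fold higher was 0 under median-of-ratios scaling, 0 under upper-quartile scaling, 0 with the length and GC trend subtracted, and 4 at 1.5-fold. After compound 2 it was 0 under median-of-ratios scaling, 0 with the trend subtracted, and 2 at 1.5-fold. The count of genes at least 2-fold lower after compound 1 was 4 under median-of-ratios scaling, 4 under upper-quartile scaling and 8 at 1.5-fold. Of all 11600 genes, 1140 and 1090 were at least 2-fold lower under those 2 scalings. After compound 2 it was 13 at 1.5-fold. With the trend subtracted, the 2 lower genes after compound 1 were ACAT2 and ACACA, of which 1 was among the reported genes. After compound 2 there were 6, of which 3 were. Of all 11542 genes, 1042 were then at least 2-fold lower after compound 1 and 864 after compound 2. Between the compounds, 1 gene was higher and 3 lower at 1.5-fold, and 0 were lower with a pseudocount of 5. The median after compound 1 was -0.40 under median-of-ratios scaling, and after compound 2 -0.39 with a pseudocount of 5. The causes were not tested. The median of all genes after compound 1 was 0.11 as deposited and 0.01 under median-of-ratios scaling. Genes past 2-fold after compound 1 were 64.5% higher as deposited, 56.0% under median-of-ratios scaling and 48.3% with the trend subtracted. After compound 2 the shares were 65.8%, 58.1% and 47.8%. No paired analysis was possible because each group has 1 library. Low depth limits ACSL1 and TM7SF2.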
